A study of Mus musculus with 18 samples.

Results

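The genes described here are 40 cell cycle genes of the mouse, 18 that act in DNA replication and its preparation and 22 that act in mitosis, out of 54532 genes in a table of RNA-seq read counts. They were listed by name as S phase and mitosis genes, with no threshold on a measured value, by a choice made with earlier results of these tumours known, and the replication and mitosis genes were treated apart. The counts came from 18 tumours that PB2 cells formed in mice. PB2 is a line of mouse breast cancer cells. The genotype label was EV in 10 tumours and p95HER2 in 8, and the mice of both groups were kept on the doxycycline diet DOX625. HER2 is a receptor tyrosine kinase that drives growth, and p95HER2 is a form of it that lacks most of the outer part. The strain, sex and age of the mice, the promoter behind p95HER2 and the number of clones in each line are not named in the labels. Whether every tumour grew in a mouse of its own is not stated either. The p-values therefore rest on the spread among these tumours, which may not be independent of one another.

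A cell that commits to division first raises E2F activity and cyclin E, loads the MCM helicase at replication origins, and then copies its DNA with polymerases clamped to the template by PCNA. Mitosis follows when cyclin B and Cdk1 become active, and ends when the anaphase promoting complex, switched on by Cdc20, marks cyclin B and other proteins for destruction. Replication genes are mostly transcribed by E2F in late G1 and S phase. Mitosis genes are transcribed later, by a complex of B-Myb and FoxM1 that acts through CHR elements. CCAAT boxes, a separate element, are also common in the promoters of mitosis genes. The summed RNA of replication and mitosis genes is widely used as a measure of how many cells in a tumour are cycling.

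Library totals were 35030920 to 38464541 counts in EV tumours. In p95HER2 tumours they were 32686558 to 34804640, below all EV totals, and group and total cannot be told apart. All 40 genes passed the filter on low counts, with 634 to 19834 reads per tumour for the replication genes and 1327 to 25198 for the mitosis genes. Erbb2, the gene of HER2, checks the labels: its mean was 67.9 ± 4.64 CPM (read counts per 1e+06 reads of the TMM-scaled library; SD, n = 10) in EV and 158 ± 37.7 (n = 8) in p95HER2 tumours, with no overlap. The tissue label was checked against markers. The 10 epithelial markers summed to 1840 to 3314 CPM in EV and 1952.2 to 2472 CPM in p95HER2 tumours, and markers of skeletal muscle, macrophages and other cells of the host were present as well. EV 1 stood apart with the lowest muscle level and the highest epithelial and keratinocyte levels of the 18 tumours.

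Expression of the cell cycle genes differed little between p95HER2 and EV tumours. Of the 40 genes, 3 passed the test and all 3 were lower in p95HER2: Cdc20 and Ccnb1 among the mitosis genes and Mcm5 among the replication genes. The call was a Benjamini-Hochberg adjusted p under 0.05 in edgeR's quasi-likelihood F-test, adjusted over 17123 genes. That is 7.5% of the 40, against 10.2% of all genes tested. Among all genes, 4.45% were called lower and 5.73% higher. In none of the 40 did the tumours of the groups separate without overlap, which occurred for 0.788% of all genes. In bulk tumours, fewer cycling cells and less RNA per cell cannot be told apart.

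The intervals were narrow. For all 40 genes the 95% interval of the difference lay within 1.5-fold in either direction, and for 38 within 1.25-fold, compared with 49.27% of all genes tested within 1.25-fold. No cell cycle gene of the 40 was estimated at 1.25-fold or more, which was reached by 18.3% of all genes. Both shares over all genes include genes with far fewer reads than these 40. No comparison with genes of similar counts was made. The tumours of a group also varied less in these genes: the median coefficient of variation was 8.38% in EV and 6.98% in p95HER2 tumours for the replication genes and 9.70% and 8.002% for the mitosis genes, against 13.5% and 12.2% over all genes, which include genes with far fewer reads.

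**Figure D1:**
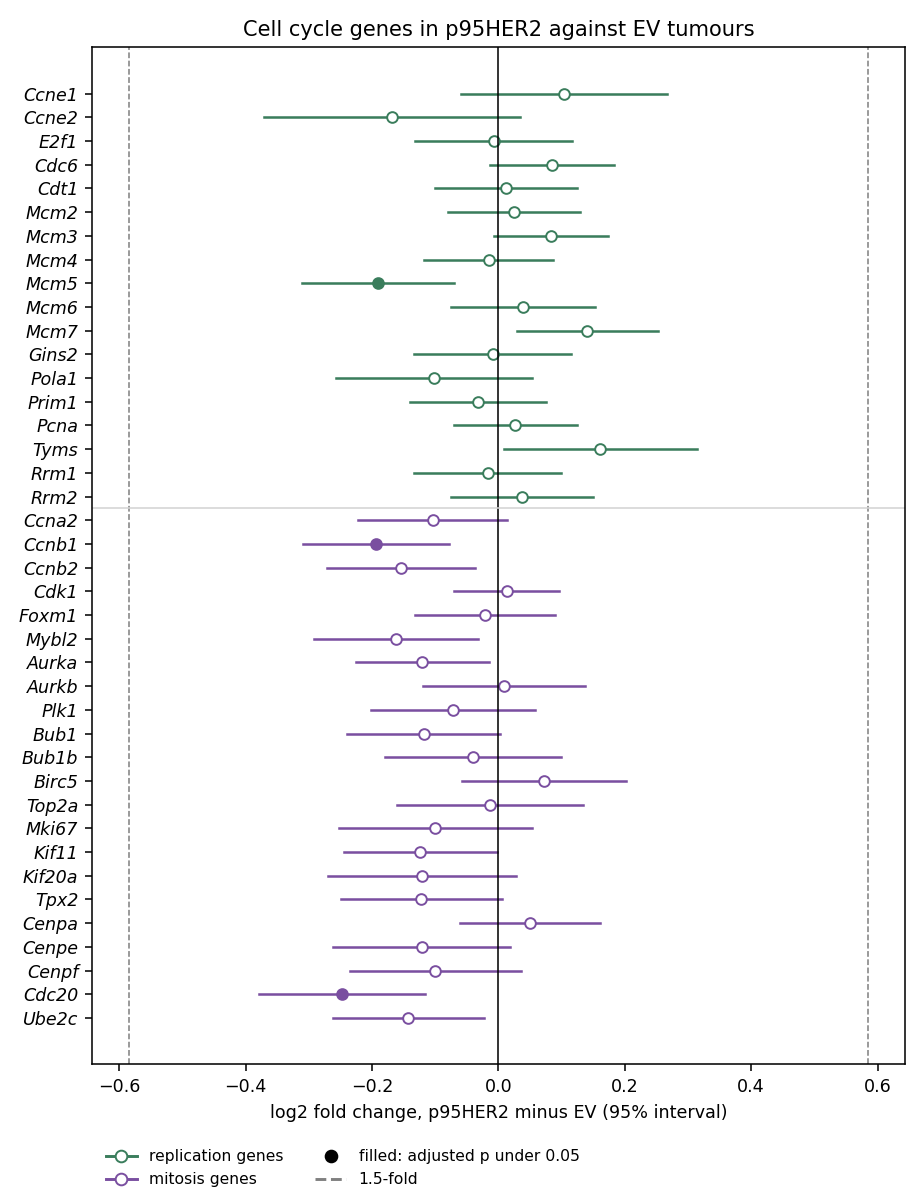
Log2 fold change (p95HER2 minus EV) of each of the 18 replication genes and 22 mitosis genes, with its 95% interval; filled points passed an adjusted p of 0.05, and dashed lines mark 1.5-fold. The filled points are Mcm5, Ccnb1 and Cdc20, all below 0, and 18 of the 22 mitosis genes lie below 0.

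The replication and mitosis genes were not placed alike around 0. Of the replication genes 8 had a negative and 10 a positive log2 fold change, with a median of 0.02 and a range of -0.19 to 0.16. Of the mitosis genes 18 were negative and 4 positive, with a median of -0.11 and a range of -0.25 to 0.07. The median over all genes tested was -0.01, and 52.26% of them were negative. The difference between the groups of genes was not tested. Mitosis genes share their regulation, so their 22 values are not independent.

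Among the mitosis genes Cdc20 fell by the most. Cdc20 (ENSMUSG00000006398, mm10 chr4:118432901-118437352, minus strand) encodes the activator of the anaphase promoting complex that starts chromosome separation. In EV tumours it was lowest at 133, with a median of 145 and a highest value of 171 CPM. In p95HER2 tumours the lowest, median and highest values were 109, 120 and 154 CPM. Of the 8 p95HER2 tumours 7 were below the EV median, and p95HER2 7 was the exception. The means were 148 ± 12.7 and 125 ± 14.3 CPM (SD, n = 10 and 8), a log2 fold change of -0.25 (SE 0.06, edgeR adjusted p = 0.0163). The call held with any tumour left out (edgeR adjusted p from 0.003376 to 0.03899). It was lost with the level of immune markers as a covariate, described below, where the log2 fold change was -0.12 (edgeR adjusted p = 0.4242). Cdc20 overlaps Elovl1 on the opposite strand, so its counts could hold reads of that gene if strand was not used.

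Ccnb1 (ENSMUSG00000041431, chr13:100778650-100786570, minus strand), the cyclin B that partners Cdk1 at entry into mitosis, ranged from 113 to 148 CPM in EV tumours with a median of 119. In p95HER2 tumours it ranged from 105 to 123 CPM with a median of 108, and the groups overlapped through p95HER2 7, which was also the highest p95HER2 tumour for Cdc20. The means were 125 ± 12.8 and 110 ± 6.01 CPM (SD, n = 10 and 8), a log2 fold change of -0.19 (SE 0.06, edgeR adjusted p = 0.02977). Leaving out EV 5, EV 7, p95HER2 2, p95HER2 3 or p95HER2 4 ended this call (edgeR adjusted p up to 0.05875), as did the immune covariate (log2 fold change -0.12, edgeR adjusted p = 0.4042).

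Mcm5 (ENSMUSG00000005410, chr8:75109569-75128439, plus strand), a subunit of the ring that unwinds DNA at the fork, was the replication gene that fell. Its lowest, median and highest values were 142, 174 and 198 CPM in EV tumours and 140, 149 and 177 CPM in p95HER2 tumours, with 7 of 8 p95HER2 tumours below the EV median. The means were 175 ± 16.6 and 153 ± 11.6 CPM (SD, n = 10 and 8), a log2 fold change of -0.19 (SE 0.06, edgeR adjusted p = 0.03996). The Mcm5 call was close to the threshold. It was lost on leaving out any of 12 tumours (EV 2, 3, 5, 6, 7 or 9, or p95HER2 1, 2, 3, 4, 5 or 8; edgeR adjusted p up to 0.0767). With the level of skeletal muscle markers as a covariate the call was also lost (edgeR adjusted p = 0.05321), while the log2 fold change stayed at -0.19. With the level of immune markers it was lost at a log2 fold change of -0.15 (edgeR adjusted p = 0.3434). The 15 muscle markers summed to 145 to 8155 CPM in EV and 440 to 4111 CPM in p95HER2 tumours, 0 of them were called, and none was at 0 in all tumours.

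The promoters of the 3 genes are shown because these are the members that passed the test, and because replication and mitosis genes are known for different promoter elements. Each sequence is the 250 bases before the annotated start, from the RefSeq promoter table of GRCm38.p6, read 5′ to 3′ on the strand of the gene. These starts differ from those of the gene coordinates given above. By the gene coordinates, the Cdc20 and Ccnb1 windows reach into the gene, and the Mcm5 window ends before it. Capitals mark matches to an E2F site, a CHR element or a CCAAT box in either orientation. The Cdc20 promoter (chr4:118437344-118437593, minus strand) held a CHR element 18 bases and CCAAT boxes 53 and 8 bases before the start. The Ccnb1 promoter (chr13:100786487-100786736, minus strand) held CCAAT boxes 99 and 67 bases before the start. The Mcm5 promoter (chr8:75109259-75109508, plus strand) held overlapping E2F sites 153 and 149 bases and CCAAT boxes 77 and 22 bases before the start.
Cdc20: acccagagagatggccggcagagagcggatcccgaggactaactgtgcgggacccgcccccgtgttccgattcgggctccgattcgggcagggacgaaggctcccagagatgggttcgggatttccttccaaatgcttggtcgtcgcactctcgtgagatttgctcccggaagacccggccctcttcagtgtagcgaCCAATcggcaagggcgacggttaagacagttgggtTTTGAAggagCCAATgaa
Ccnb1: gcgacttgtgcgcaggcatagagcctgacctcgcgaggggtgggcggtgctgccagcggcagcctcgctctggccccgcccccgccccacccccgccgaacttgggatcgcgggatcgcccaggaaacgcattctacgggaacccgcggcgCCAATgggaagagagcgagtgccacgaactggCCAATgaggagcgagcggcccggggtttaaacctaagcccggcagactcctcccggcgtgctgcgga
Mcm5: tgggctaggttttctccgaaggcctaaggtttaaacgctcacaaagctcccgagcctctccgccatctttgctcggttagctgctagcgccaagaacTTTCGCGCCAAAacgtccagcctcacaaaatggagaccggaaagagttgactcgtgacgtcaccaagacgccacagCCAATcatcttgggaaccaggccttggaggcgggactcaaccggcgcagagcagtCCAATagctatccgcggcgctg

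Promoter letters were counted in each class, and the difference between the classes was not tested. RefSeq promoters were matched for 15 of the 18 replication genes and 17 of the 22 mitosis genes. An E2F site (TTTCGCGC, TTTGGCGC, TTTCCCGC or TTTGCCGC on either strand) lay in the 250 bases before the start of 5 replication genes (Cdc6, Mcm5, Mcm6, Mcm7 and Pola1), or 33.3%. It lay in 1 mitosis gene (Cdk1), or 5.88%. A gene was counted if any of its promoters held the motif. Counted that way the site lay in 2.16% of all 27025 genes, and it lay in 1.86% of all 32851 promoters. In the 100 bases before the start the site lay in 1 replication and 0 mitosis genes, against 0.981% of all genes and 0.846% of all promoters. A CHR element (TTTGAA or TTCGAA on either strand) lay in 2 replication genes (13.3%) and 8 mitosis genes (47.1%). It lay in 19.6% of all genes and 17.1% of all promoters. The 8 were Ccnb2, Cdk1, Bub1b, Top2a, Mki67, Kif11, Cdc20 and Ube2c. A CCAAT box (CCAAT on either strand) lay in 10 replication genes (66.7%) and 15 mitosis genes (88.2%). It lay in 37.5% of all genes and 33.8% of all promoters. A match describes letters in a window and is not a bound site. Of these motifs, the CCAAT box lay in all 3 promoters printed above.

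The regulators of entry into S phase did not pass the test. Ccne1, a cyclin E that activates Cdk2, had means of 20.8 ± 3.08 CPM in EV and 22.3 ± 1.35 in p95HER2 tumours (SD, n = 10 and 8), a log2 fold change of 0.10 (edgeR adjusted p = 0.4303). Its paralog Ccne2 had means of 41.6 ± 7.05 and 37.0 ± 4.37 CPM, a log2 fold change of -0.17 (edgeR adjusted p = 0.2799), and the widest interval of the replication genes. E2f1, the transcription factor that drives replication genes, had means of 55.1 ± 6.20 and 54.8 ± 3.06 CPM. The cyclin E pair thus pointed in opposite directions with intervals that both included no change.

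Loading of the helicase begins with Cdc6 and Cdt1, which bring MCM rings to origins. Cdc6 ranged from 32.4 to 42.2 CPM in EV and from 37.5 to 41.8 CPM in p95HER2 tumours, with 1 of the 8 p95HER2 tumours below the EV median, and a log2 fold change of 0.08 (SE 0.05, edgeR adjusted p = 0.2646). Cdt1 had means of 55.6 ± 4.24 and 56.1 ± 4.599 CPM. Gins2, a subunit of the complex that joins the MCM ring at the firing origin, had means of 28.1 ± 2.13 and 27.9 ± 2.74 CPM. The p95HER2 values of Cdc6 thus lay in the upper part of the EV range, while those of Cdt1 and Gins2 spread over about the same range as in EV tumours.

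The 6 MCM genes encode the subunits of a ring in which each is present in equal copies, but their RNAs were not equal. Per kilobase of exon, Mcm2 was lowest at 22.05 CPM per kb and Mcm7 highest at 110 CPM per kb in EV tumours. The place of Mcm2 depends on the length used, an exon union of 6956 bases, against 3589 for Mcm4. Before division by length, the EV mean of Mcm2 was 153 CPM, above the 145 CPM of Mcm4. Mcm2 had lowest, median and highest values of 136, 151 and 172 CPM in EV and 135, 157 and 167 CPM in p95HER2 tumours, and a log2 fold change of 0.02 (edgeR adjusted p = 0.8065). Mcm3, Mcm4 and Mcm6 had log2 fold changes of 0.08, -0.02 and 0.04 and did not pass. Mcm7 had means of 487 ± 38.6 and 536 ± 41.7 CPM, with 1 of 8 p95HER2 tumours below the EV median, and a log2 fold change of 0.14 (SE 0.05, edgeR adjusted p = 0.09847). Without p95HER2 8, Mcm7 passed the test as higher (edgeR adjusted p = 0.02687). Mcm7 overlaps Cops6 and Ap4m1 on the opposite strand, and no source says whether strand was used in the counting, so its counts are uncertain.

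The shares of the 6 RNAs within a tumour restate these values and are given without a test, since they were examined after the fold changes of Mcm5 and Mcm7 were seen. As a share of the summed CPM per kb of Mcm2 to Mcm7, Mcm5 was 13.4% ± 0.821 in EV (11.8% to 14.4%) and 11.4% ± 0.567 in p95HER2 tumours (10.5% to 12.3%; SD, n = 10 and 8). All 8 p95HER2 tumours were below the EV median, and the groups overlapped. Mcm7 took 33.7% ± 1.59 in EV and 36.0% ± 0.953 in p95HER2 tumours, with none of the 8 below the EV median. The uncertain counts of Mcm7 enter every share. The shares of a tumour sum to a fixed total, so they are not separate results.

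The genes of the fork and of nucleotide supply did not pass. Pcna, the sliding clamp, had lowest, median and highest values of 246, 284 and 304 CPM in EV and 257, 297 and 304 CPM in p95HER2 tumours, and a log2 fold change of 0.03 (edgeR adjusted p = 0.7656). It had the highest level per length among the replication genes, 117 CPM per kb in EV tumours. The p95HER2 values lay inside nearly the same range as the EV values. Pola1 and Prim1, the polymerase and primase subunits that lay down the first primer, had log2 fold changes of -0.10 and -0.03. Among the enzymes that make deoxynucleotides, Tyms (thymidylate synthase) had means of 180 ± 20.1 and 201 ± 23.4 CPM, a log2 fold change of 0.16 (SE 0.07, edgeR adjusted p = 0.165). Rrm1 and Rrm2, the subunits of ribonucleotide reductase, had log2 fold changes of -0.02 and 0.04.

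Among the other mitotic cyclins and their kinase, none passed. Ccnb2 had means of 95.6 ± 8.95 (EV) and 85.9 ± 6.30 CPM (p95HER2), with 7 of 8 p95HER2 tumours below the EV median and a log2 fold change of -0.15 (SE 0.06, edgeR adjusted p = 0.0834). Ccna2, cyclin A, had a log2 fold change of -0.10 (edgeR adjusted p = 0.2477). Cdk1, which both cyclins activate, was level at 134 ± 7.55 and 135 ± 6.23 CPM, a log2 fold change of 0.01. Its interval, 0.953- to 1.07-fold, was the narrowest of the mitosis genes.

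The transcription factors of the mitosis programme did not pass. Mybl2, the gene of B-Myb, ranged from 38.6 to 57.4 CPM in EV and from 39.6 to 46.0 CPM in p95HER2 tumours. All 8 p95HER2 values were below the EV median of 49.3 CPM (log2 fold change -0.16, SE 0.06, edgeR adjusted p = 0.1016). Without EV 1, which had the lowest Mybl2 value of the EV tumours, it passed (edgeR adjusted p = 0.02319). Foxm1 was level, at 102 ± 6.82 and 100 ± 9.06 CPM.

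Among the mitotic kinases, the spindle checkpoint and the chromosomal passenger survivin, 6 genes in all, none passed. Aurka, the kinase of the spindle poles, and Bub1, a checkpoint kinase, had log2 fold changes of -0.12 each (edgeR adjusted p = 0.1318 and 0.2007). Plk1 and Bub1b had log2 fold changes of -0.07 and -0.04. Aurkb and Birc5, the kinase and the survivin subunit of the passenger complex, had log2 fold changes of 0.01 and 0.07. The passenger genes were therefore the members of this role with positive values.

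Mki67, whose product coats mitotic chromosomes and marks cycling cells in pathology, had lowest, median and highest values of 433, 523 and 698 CPM in EV and 449, 497 and 548 CPM in p95HER2 tumours. EV 7 was the highest tumour and EV 1 the lowest, so the EV range enclosed the p95HER2 range. The log2 fold change was -0.10 (SE 0.07, edgeR adjusted p = 0.4131), with a 95% interval of 0.839- to 1.04-fold. Top2a, the topoisomerase that untangles chromosomes, had lowest, median and highest values of 468, 559 and 680 CPM in EV and 488, 539 and 622 CPM in p95HER2 tumours, a log2 fold change of -0.01 (edgeR adjusted p = 0.9317). These genes had the highest mean CPM of the mitosis genes, and neither differed beyond the spread between tumours.

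The motors and centromere proteins also did not pass. Kif11, Kif20a and Tpx2, which build or organise the spindle and the midzone, had log2 fold changes of -0.12 each. Cenpe, a kinetochore motor, and Cenpf, a kinetochore protein, had log2 fold changes of -0.12 and -0.10, whereas Cenpa, the centromeric histone, had 0.05. Ube2c, the ubiquitin-conjugating enzyme that works with the anaphase promoting complex, had means of 137 ± 10.8 and 124 ± 11.6 CPM, a log2 fold change of -0.14 (SE 0.06, edgeR adjusted p = 0.1151). Without EV 1 it passed (edgeR adjusted p = 0.03644). The last exon of Ube2c overlaps the muscle gene Tnnc2 on the opposite strand. Tnnc2 ranged from 4.22 to 367 CPM over the EV tumours, where Ube2c ranged from 115 to 155 CPM. Both were lowest in EV 1 among the EV tumours, but Ube2c was highest in EV 8 and Tnnc2 in EV 9. Among the p95HER2 tumours both were lowest in p95HER2 4, with Tnnc2 at 16.55 and Ube2c at 105.5 CPM. Both were highest there in p95HER2 6, at 196.4 and 141.1 CPM. Whether reads of Tnnc2 entered the Ube2c counts was not tested.

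**Figure D2:**
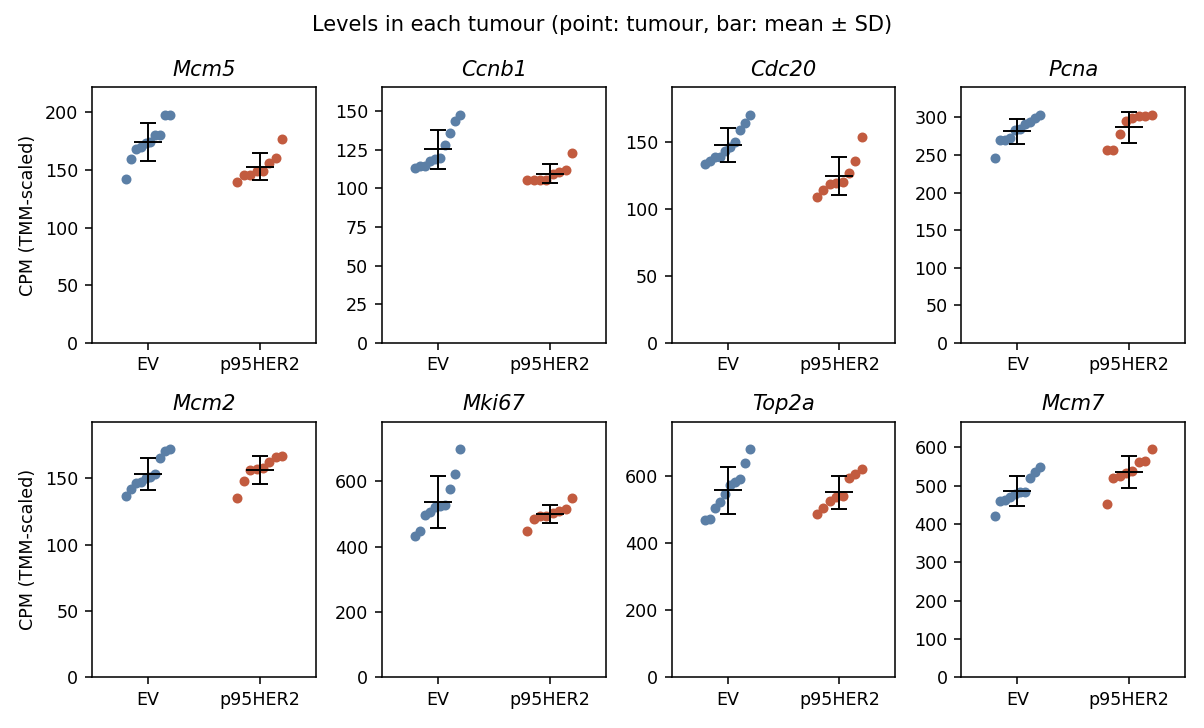
CPM of 8 cell cycle genes in each tumour (points), with mean and SD for the 10 EV and 8 p95HER2 tumours; the y axes start at 0. Cdc20, Ccnb1 and Mcm5 sit lower in p95HER2 with overlap, while Pcna, Mcm2 and Top2a cover nearly the same range in both groups.

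Averaged per tumour as log2(CPM + 0.5), the replication genes stood at 6.70 ± 0.09 (EV) and 6.72 ± 0.07 (p95HER2; SD, n = 10 and 8). The level of the mitosis genes was 7.08 ± 0.10 and 6.99 ± 0.09. EV 7 and EV 2 had the highest mitosis levels, at 7.24 and 7.23, and p95HER2 4 and EV 1 the lowest, at 6.87 and 6.90. Mitosis minus replication was 0.37 ± 0.10 in EV and 0.27 ± 0.07 in p95HER2 tumours, and the groups overlapped (0.23 to 0.52 against 0.16 to 0.37). No p is given for these averages because the members were chosen with earlier results of these tumours in view.

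**Figure D3:**
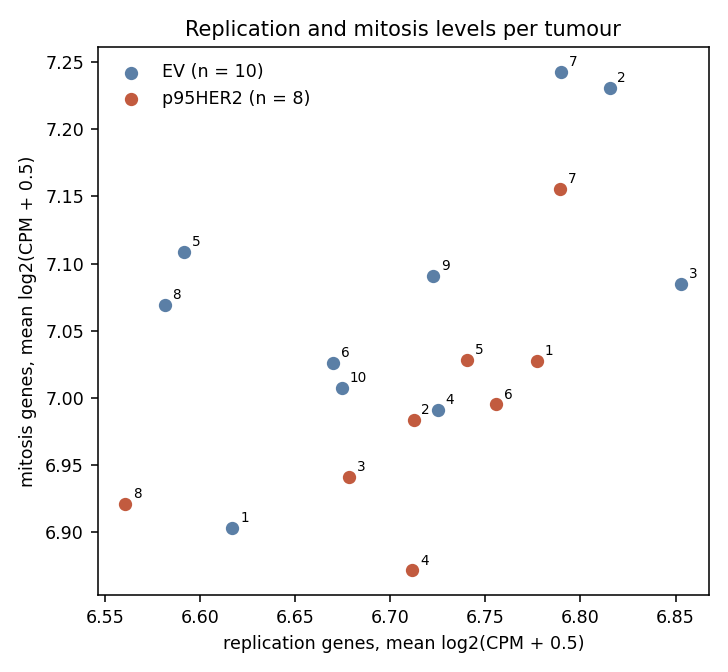
Mean log2(CPM + 0.5) of the 22 mitosis genes (y) against that of the 18 replication genes (x), 1 point per tumour. The groups overlap on both axes, and EV 7 and EV 2 lie highest on the mitosis axis.

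Markers of immune cells moved with the group. Of 12 macrophage markers 6 were called lower and 1, Cd14, higher in p95HER2 tumours, and their sum ran from 824 to 1563 CPM in EV and from 613 to 1094 CPM in p95HER2 tumours. Of 10 T cell markers 2 were called lower, with sums of 16.4 to 88.6 and 9.12 to 39.6 CPM. Of 6 B cell markers 3 could be tested and 2 were called lower, with sums of 3.30 to 8.69 and 0.919 to 3.54 CPM, and 2 of the 6 were at 0 in some tumours. None of these immune markers was at 0 in all tumours. Of markers of other host cells, 6 of 8 for adipocytes, 2 of 7 for keratinocytes, 1 of 10 for fibroblasts and 0 of 10 for endothelial cells were called lower, and none was called higher. Adipocyte markers summed to 31.2 to 132 CPM in EV and 11.998 to 40.2 CPM in p95HER2 tumours, and their part in the result was not tested. EV 7, with the highest mitosis level, also had the highest immune level of the 18 tumours, and p95HER2 4, with the lowest mitosis level, had the lowest. Other tumours were not placed this way. EV 2, with a mitosis level of 7.23, had an immune level of 2.70, against an EV mean of 2.68. The highest p95HER2 tumour for mitosis, p95HER2 7 at 7.16, had an immune level of 2.25, against a p95HER2 mean of 2.12.

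With the mean immune marker level as a covariate, none of the 40 genes passed edgeR's test. Cdc20 then had a log2 fold change of -0.12 (SE 0.07, edgeR adjusted p = 0.4242), Ccnb1 of -0.12 (SE 0.07, edgeR adjusted p = 0.4042) and Mcm5 of -0.15 (SE 0.08, edgeR adjusted p = 0.3434). Unadjusted, 0 mitosis genes and 2 replication genes had p under 0.05. The median of the mitosis genes was 0.01, with 11 of 22 negative, and that of the replication genes was 0.02. In that fit 2.23% of all genes were called. The immune level runs with the group (2.68 ± 0.34 against 2.12 ± 0.33), so the covariate and the group share information, and the part of immune cells in the result was not tested. Within the groups, none of 8 correlations of the immune level with Mki67, Cdc20, Ccnb1 or Mcm5 passed after adjustment (permutation test, smallest adjusted p = 0.275 for Pearson's r and 0.499 for Spearman's rho). Mki67 had r = 0.54 and rho = 0.45 in EV and r = 0.65 and rho = 0.52 in p95HER2 tumours, and without the 2 tumours farthest from the median immune level r was 0.44 and -0.08. Cdc20 had r = 0.47 and rho = 0.31 in EV and r = 0.63 and rho = 0.69 in p95HER2 tumours, and r was 0.19 and 0.28 without those tumours. The highest r was thus that of Mki67 and the highest rho that of Cdc20, both in p95HER2 tumours.

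**Figure D4:**
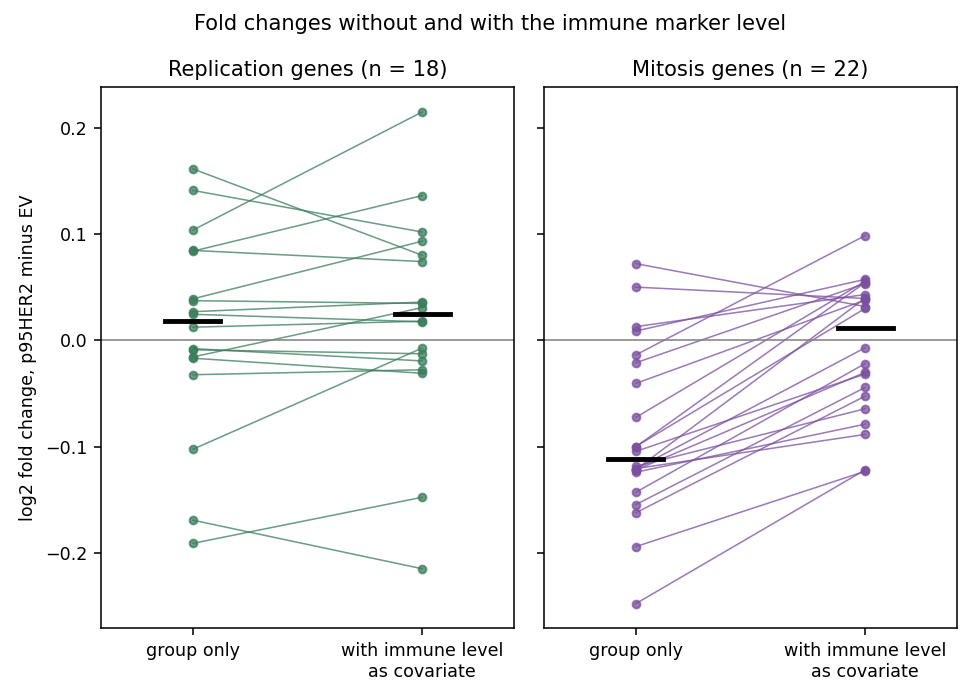
Log2 fold change (p95HER2 minus EV) of each replication gene (left) and mitosis gene (right) from the fit with the group alone and from the fit with the immune marker level added; a line joins the values of a gene, and black bars mark the medians. The median of the mitosis genes moves from -0.11 to 0.01, and that of the replication genes stays at 0.02.

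Few other replication genes passed. Of 45, 2 were called lower and 1 higher (6.67%, against 10.2% of all genes tested). Negative values were found in 30 (66.67%, against 52.26% of all genes), with a median log2 fold change of -0.02. Gins4, a partner of Gins2 in the same complex, fell from 29.5 ± 1.68 to 25.6 ± 1.57 CPM (log2 fold change -0.21, edgeR adjusted p = 0.008422). Dbf4, the activator of the kinase that fires origins, fell with a log2 fold change of -0.19 (edgeR adjusted p = 0.03312), a call that 9 of 18 omissions ended (edgeR adjusted p up to 0.07534; EV 2, 3, 5, 7 or 9, or p95HER2 1, 2, 3 or 4). Slbp, which binds histone mRNA, rose from 210 ± 17.7 to 248 ± 20.2 CPM (log2 fold change 0.24, edgeR adjusted p = 0.009996). With the immune covariate these 3 calls were lost (edgeR adjusted p = 0.1243 for Gins4, 0.3348 for Dbf4 and 0.2953 for Slbp).

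Of 58 other mitosis genes 8 were called lower and 1 higher (15.5%, against 10.2% of all genes tested). Negative values were found in 50 (86.21%, against 52.26% of all genes), and the median was -0.10. Sgo1, the protector of centromeric cohesion, fell from 38.8 ± 3.06 to 31.2 ± 2.17 CPM (log2 fold change -0.32, edgeR adjusted p = 0.001037), with all 8 p95HER2 tumours below the EV median. Ckap2, a spindle protein, Cep55, which acts at the last step of cytokinesis, and Gtse1, a microtubule protein, fell with log2 fold changes of -0.33, -0.31 and -0.31 (edgeR adjusted p = 0.001526, 0.002696 and 0.009347). These 4 genes changed by more than any of the 22 mitosis genes above. Tacc3, a spindle protein, rose with a log2 fold change of 0.20 (edgeR adjusted p = 0.02964), a call that 8 omissions ended (edgeR adjusted p up to 0.06363; EV 4, 5, 6, 7 or 9, or p95HER2 5, 6 or 7). With the immune covariate Sgo1 kept its call (edgeR adjusted p = 0.03163), and Ckap2, Cep55, Gtse1 and Tacc3 lost theirs (edgeR adjusted p = 0.05578, 0.08656, 0.3161 and 0.3593).

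Among 35 regulators of G1 and of entry into the cycle, 5 were called lower and 1 higher (17.1%, against 10.2% of all genes tested). Cdkn1a, the CDK inhibitor p21, fell from 367 ± 34.6 to 294 ± 43.2 CPM (log2 fold change -0.32, edgeR adjusted p = 0.01342), and Cdkn2b, the CDK inhibitor p15, rose from 7.44 ± 0.83 to 10.1 ± 1.76 CPM (log2 fold change 0.44, edgeR adjusted p = 0.008984). Tfdp1, the dimer partner of E2F, Rbl2, a relative of the retinoblastoma protein, and the repressor E2f7 fell with log2 fold changes of -0.23, -0.24 and -0.30 (edgeR adjusted p = 0.004957, 0.0107 and 0.01384). With the immune covariate none of these calls held (edgeR adjusted p = 0.1532 for Cdkn1a, 0.1496 for Cdkn2b, 0.1601 for Tfdp1, 0.2379 for Rbl2 and 0.1768 for E2f7). Ccnd1 (2381 and 2150 CPM), Cdkn2a (73.0 and 79.2 CPM) and Myc (143 and 126 CPM) did not pass (edgeR adjusted p = 0.1601, 0.2665 and 0.07475).

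The calls were unevenly placed in the genome. The 40 genes and the other 3 lists hold 178 genes, of which 18 were called lower and 3 higher. Chromosome 8 held 11 of the 178 and 6 of the 18 that were lower: Mcm5, Gins4, Ckap2, Rbl2, Tfdp1 and E2f4, the last named after its values were seen. On chromosome 5, 18 of the 178 genes lay, of which 1 was lower and 2 higher (Slbp and Tacc3, which are neighbours). Over all genes tested, 6.8% of chromosome 8 were lower and 1.78% higher, and 5.33% of chromosome 5 were lower and 15% higher, against 4.24% and 5.26% on the other chromosomes. The median log2 fold change was -0.07 over chromosome 8 and 0.01 over chromosome 5.

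Against the genes around them the replication genes showed no common offset. The genes within 5 Mb of Mcm7, on chromosome 5, had a median log2 fold change of 0.14 (136 genes), against 0.14 for Mcm7 itself, and those around Tyms had 0.16, against 0.16 for Tyms. Those around Mcm5 had -0.07 (105 genes), above the -0.19 of Mcm5. Of the 18 replication genes 8 lay below the median of their neighbours. All 22 mitosis genes lay below it, as did 54 of 58 other mitosis genes, 27 of 45 other replication genes and 50.4% of 13428 expressed genes. Neighbours of Cdc20 and Ccnb1 had medians of 0.02 and -0.03, against -0.25 and -0.19 for the genes. Only 1 mitosis gene, Cenpa, lay on chromosomes 5 or 8, so leaving these chromosomes out could change little. Without it, 18 of 21 mitosis genes were negative, with a median of -0.12. Of the 13 replication genes off these chromosomes 6 were negative, with a median of 0.02. DNA copy number was not measured in these files, and its part in the neighbourhood values was not tested.

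**Figure D5:**
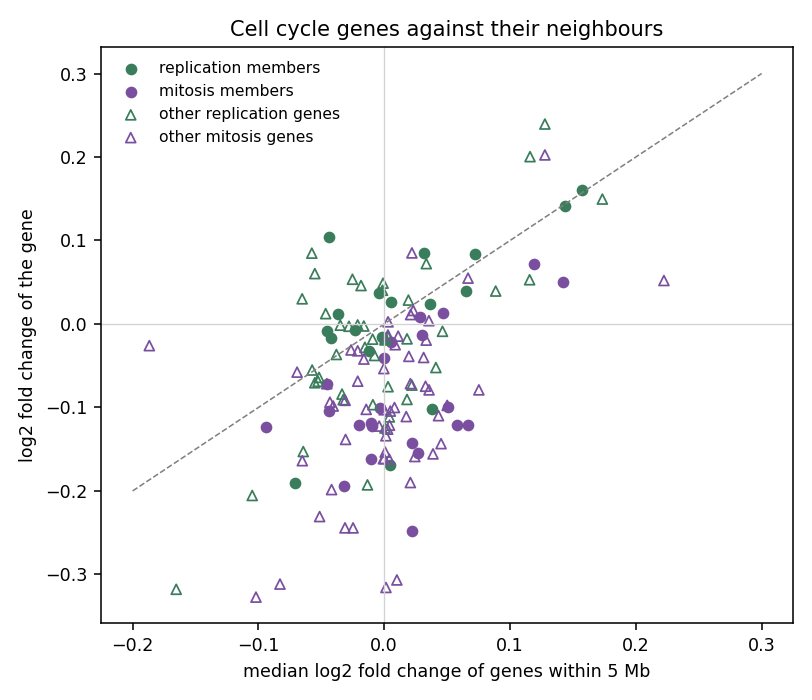
Log2 fold change of each cell cycle gene (y) against the median log2 fold change of the expressed genes within 5 Mb of it (x); circles are the 40 genes, triangles the other replication and mitosis genes, and the dashed line marks equality. All 22 mitosis circles lie below the line, and the replication circles lie on both sides of it.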

How the data were processed

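RNA was measured by sequencing of directional mRNA libraries from 10 EV and 8 p95HER2 tumours. The values are the deposited counts of reads for each Ensembl gene, which the authors left unnormalized. The submitters' processing notes name STAR 2.5, HTSeq 0.6.1 and mm10. No source used here gives the strand setting or the annotation release. Besides Cdc20, Mcm7 and Ube2c, the members Kif20a, Ccne2, Gins2 and Ccna2 overlap a protein-coding gene on the opposite strand. The partners are Cdc23, Ints8, Gse1 and Exosc9, and all but Exosc9 had more reads than the member. Counts of these members could hold reads of the partner if strand was not used. Replicate numbers follow accession order, and the labels give neither batch nor pairing. The tag number of p95HER2 1 (1576) lies far from those of the other p95HER2 tumours (1947 to 1960) and of EV (1962 to 1974), and what the numbers count is not stated.

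Counts were tested with edgeR 4.0.16 in R 4.3.3 (filterByExpr with a minimum count of 10 and total of 15, TMM, robust quasi-likelihood F-test, Benjamini-Hochberg over 17123 genes), which was tested on simulated data. On the simulated data 17 of 50 genes changed 1.25-fold and 34 of 50 changed 1.5-fold were called, as were 5 of 16775 unchanged genes. A gene that did not pass is thus not shown to be unchanged. Alternatives used DESeq2 1.42.0, limma 3.58.1, other scalings and filters, marker covariates, thinning and each tumour left out. CPM per kb used the exon union of a GENCODE annotation of the same build. Positions, neighbours and MCM shares were chosen after values were seen. The members and lists were chosen with earlier results of these data known. Named genes were all members, Mki67, Top2a, Pcna, Mcm2 and called members with values over the tumours, up to 4 called genes in each direction of each other list by adjusted p, and Ccnd1, Cdkn1a, Cdkn2a and Myc, with Erbb2 as label check. Of all library pairs within a group, the closest differed by more than sampling noise (chi-square per gene 11.3). Depth left at least 634 reads per member and tumour.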

Additional observations from a re-analysis of the deposited data

Results flagged for a closer look

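In 5 of 86 sets of values (a gene in a group) the highest or lowest tumour stood apart from the rest by Dixon's criterion at 95%, a number that chance gives in about 1 in 20 sets. Prim1 was at 52.52 CPM in EV 5, against 62.98 to 69.89 CPM in the other EV tumours. In p95HER2 7, Ccnb1 was at 123 CPM, against 105.2 to 111.7 CPM in the other p95HER2 tumours, and Kif20a was at 105.3 CPM, against 81.22 to 91.76 CPM. In EV 7, Cenpe was at 134.1 CPM, against 90.95 to 111.9 CPM in the other EV tumours, and Cenpf was at 139.9 CPM, against 88.11 to 113.5 CPM. EV 7 also had the highest Mki67 value and the highest immune marker level of the 18 tumours. Among the p95HER2 tumours the immune marker level was highest in p95HER2 6 (2.53), not in p95HER2 7 (2.25).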

How the results depend on the processing

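Under RLE scaling, library totals, both filters, DESeq2, thinning and the omission of EV 1 with p95HER2 4, Mcm5, Ccnb1 and Cdc20 stayed lower and called. limma voom added Ube2c (adjusted p = 0.03951), and the epithelial covariate and that omission of EV 1 with p95HER2 4 added Mybl2 (0.04238 and 0.0453). With the muscle covariate 0 replication genes were called, since Mcm5 had an edgeR adjusted p of 0.05321 at a log2 fold change of -0.19. With the immune covariate, calls numbered 0 for replication members, 0 for mitosis members, 0 for other replication genes, 2 for other mitosis genes and 0 for regulators of G1, and the median of the mitosis members was 0.0115; the cause was not tested. With a tumour left out, called replication members numbered 0 to 1 (Mcm7, as higher, without p95HER2 8) and mitosis members 1 to 4, the 4 without EV 1. Other replication genes called reached 5 without p95HER2 8. Over 720 values of members with a tumour left out, 17 calls were lost, 3 gained and 0 reversed. In the 100 bases before the start, E2F sites numbered 1 in replication and 0 in mitosis genes, and CHR elements 1 in replication genes. Within 2 Mb, 20 of 22 mitosis and 10 of 17 replication genes lay below the median of their neighbours, and within 10 Mb 22 of 22 and 7 of 18. No paired analysis was possible because the labels give no pairing of the tumours. Group and library total cannot be told apart.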
